A study of Homo sapiens with 12 samples.

Results

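The SOXC, SOXD and SOXE genes are 3 related subgroups of the SOX family of transcription factors, and 9 genes of these names were read from a table of 58219 genes: SOX4, SOX11 and SOX12 (SOXC), SOX5, SOX6 and SOX13 (SOXD), and SOX8, SOX9 and SOX10 (SOXE). They were chosen by name and not by a cut on their values, but with earlier results of these data known. The study asked what SOX21 does in early neural differentiation, and sequenced poly(A) RNA of the human embryonic stem cell line H9. There were 2 libraries labelled SOX21-/- (S13 and S23) and 2 labelled wild type (WT1 and WT2) at each of days 0, 4 and 8, in all 12 libraries in 6 groups. The sources used here do not say whether S13 and S23 are separate clones, whether a label carried over the days marks 1 culture, or what the SOX21 mutation is. The p-values therefore measure only the spread between these libraries, which may be technical.

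All SOX proteins bind DNA through an HMG box and bend it, and the subgroups differ in what lies outside that box. SOXC proteins carry a strong activation domain and are made in neural progenitors and young neurons, where they switch on neuronal genes. SOXD proteins have no activation or repression domain of their own, pair with each other through a coiled coil, and help or hinder other SOX proteins, best known in cartilage, where SOX5 and SOX6 act with SOX9. SOXE proteins act in neural stem cells, glia and neural crest, the migratory cells that leave the edge of the neural plate. SOX21 itself belongs to the SOXB2 subgroup, which represses genes in neural progenitors.

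Values were in TPM, a gene's share of all transcripts, corrected for length and set to a fixed total per library, so levels can be compared between genes, but the number of reads behind them is unknown. Fold changes and standard errors (SE) are on the log2(TPM + 1) scale, where changes of low genes appear too small, and adjusted p-values are from limma over the 24248 genes with at least 1 TPM in at least 2 libraries. A gene is said to rise or fall where its adjusted p was under 0.05. The targeted gene did not check the genotype label: SOX21 stood at 1.62 and 1.84 TPM at day 0, 162 and 143 TPM at day 4 and 253 and 69.9 TPM at day 8 in S13 and S23, against 1.26 and 1.39, 156 and 166, and 129 and 100.04 TPM in WT1 and WT2. Its level did not pass the test at any day. Day 0 libraries stood apart from the others in makeup, with 55.9% to 56.4% of TPM in nuclear protein-coding genes, against 83.5% to 87.1% at days 4 and 8, so all steps out of day 0 carry that difference. The 8 pluripotency markers summed to 2680 to 2684 TPM in SOX21-/- and 2827 to 2870 TPM in wild type at day 0. The 12 neural progenitor markers reached 3309 to 3393 TPM in SOX21-/- and 2713 to 2848 TPM in wild type at day 8.

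Of the 9 genes, 8 passed the filter and were tested, and SOX10 stayed under 1 TPM in every library. All 8 rose between day 0 and day 4 in both genotypes on the TPM scale, SOX11 and SOX5 with the largest log2 fold changes, though SOX13 in both genotypes and SOX8 in wild type changed sign under another scaling. SOX13 was the only 1 of the 8 whose level differed between the genotypes beyond the threshold: at day 8 it averaged 130.2 ± 0.0119 TPM in SOX21-/- and 36.8 ± 2.00 TPM in wild type (SD, n = 2 each), a 3.53-fold higher mean. SOX9, the leading SOXE gene, averaged 27.0 ± 0.743 TPM in SOX21-/- and 43.5 ± 0.914 TPM in wild type at day 8, a difference that missed the threshold. SOX4 and SOX11 were lower in SOX21-/- at day 4 and higher at day 8 in their means, and none of these 4 differences passed.

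**Figure D1:**
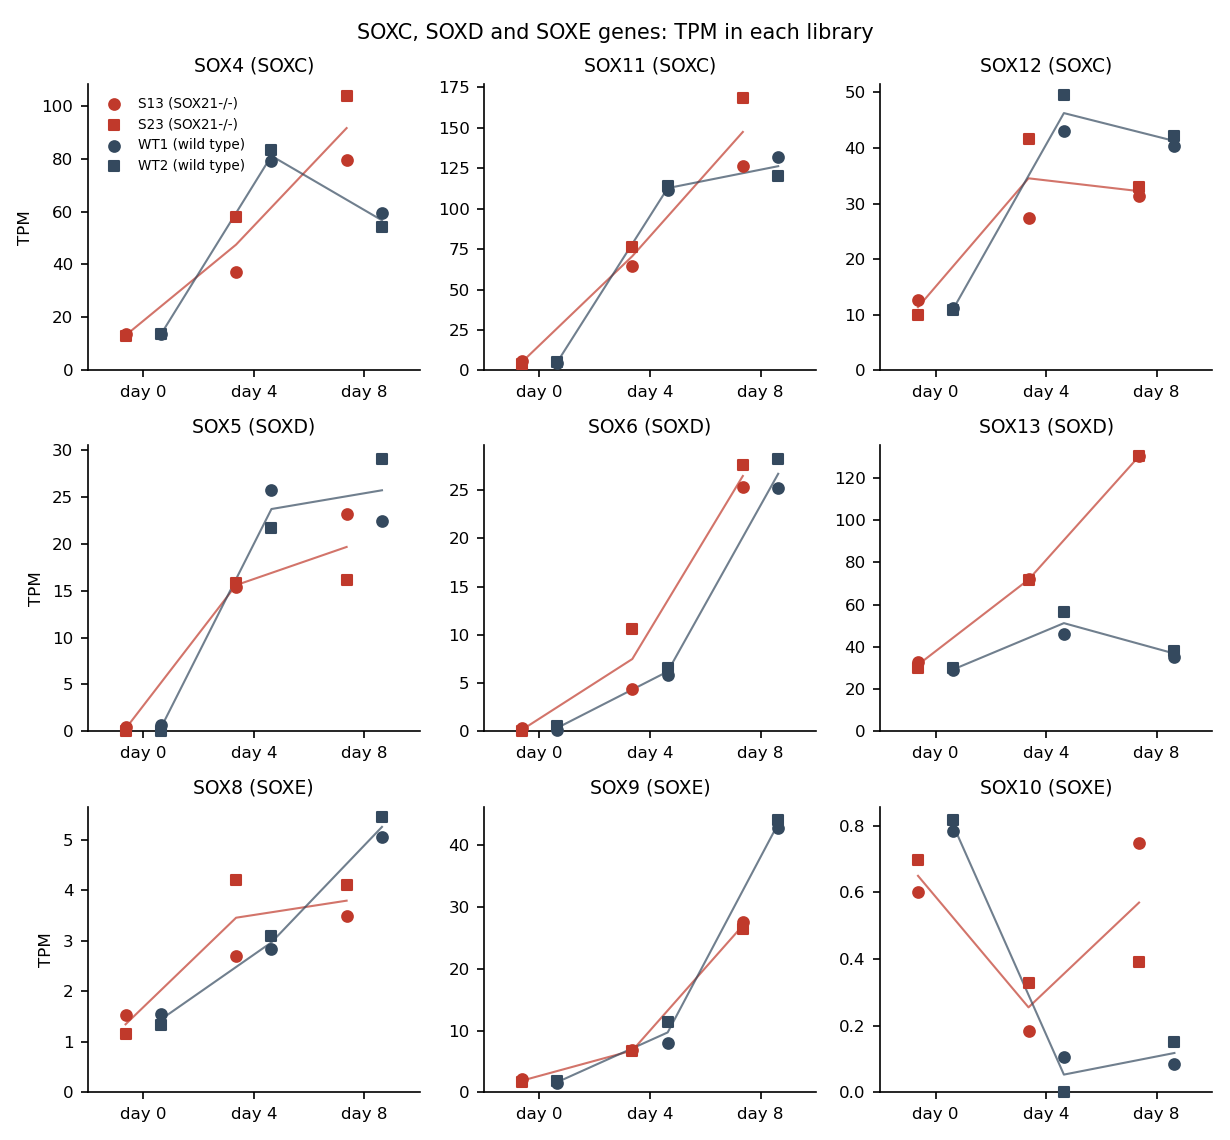
TPM of each of the 9 genes (vertical axis, from 0, a scale per panel) by day (horizontal axis), with a point per library, SOX21-/- libraries in red to the left of wild-type libraries in dark blue, and lines through the group means. SOX13 separates at day 8, where S13 and S23 both stood at 130.2 TPM and WT1 and WT2 at 35.4 and 38.3 TPM, while the libraries overlap for SOX6 at every day.

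The SOXC genes held the largest share of the summed TPM of the 9 genes at days 4 and 8 in every library. SOX4 and SOX11 are strong activators of neuronal genes, needed in mice for neurons and their precursors to survive, and SOX12 is a weaker activator expressed beside them. SOX4 (ENSG00000124766, chr6:21592768-21598619, plus strand), SOX11 (ENSG00000176887, chr2:5692667-5701385, plus strand) and SOX12 (ENSG00000177732, chr20:325595-330224, plus strand) each have 1 exon in GENCODE v29 on GRCh38.

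SOX4 stood at 13.6 and 12.8 TPM at day 0, 37.1 and 57.9 TPM at day 4 and 79.6 and 103 TPM at day 8 in S13 and S23. In WT1 and WT2 it stood at 13.7 and 13.6 TPM, then 78.9 and 83.1 TPM, then 59.3 and 53.99 TPM. Both SOX21-/- libraries were thus below both wild-type libraries at day 4 and above them at day 8. The log2 fold change between genotypes was -0.79 at day 4 (SE 0.20, adjusted p = 0.106) and 0.67 at day 8 (SE 0.20, adjusted p = 0.126). The change of this difference from day 4 to day 8 was 1.46 (SE 0.28), with an adjusted p of 0.0538. Over all processing alternatives run, leave-outs included, the difference ran from -1.11 to -0.48 at day 4 and from 0.48 to 0.86 at day 8. Its change ran from 1.15 to 1.78. The values of -1.11 and 1.78 came without the S23 library of day 4. The change passed with a filter at 5 TPM (adjusted p = 0.0472) and with rescaling to nuclear protein-coding genes (1.45, adjusted p = 0.0264). It did not pass with median-of-ratios scaling or quantile normalization. Without either S13 or S23 of day 4 the difference at day 8 stayed at 0.67.

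SOX11 had 5.91 and 4.27 TPM at day 0, 64.8 and 76.6 TPM at day 4 and 126 and 169 TPM at day 8 in S13 and S23. The wild-type libraries WT1 and WT2 had 4.89 and 5.22 TPM, then 111 and 114 TPM, then 132 and 121 TPM. The genotypes did not overlap at day 4, with SOX21-/- lower, and overlapped at days 0 and 8. The difference was -0.67 at day 4 (SE 0.17, adjusted p = 0.111) and 0.21 at day 8 (SE 0.17, adjusted p = 0.623), and its change between those days was 0.88 (SE 0.24, adjusted p = 0.125). SOX12 had 12.7 and 10.1 TPM, then 27.5 and 41.6 TPM, then 31.4 and 33.1 TPM in S13 and S23 over the 3 days. Its wild-type values were 11.3 and 10.9 TPM, then 43.1 and 49.4 TPM, then 40.3 and 42.2 TPM. SOX12 lay lower in both SOX21-/- libraries at days 4 and 8, by -0.44 (SE 0.19, adjusted p = 0.285) and -0.35 (SE 0.19, adjusted p = 0.426).

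The balance among the SOXC genes moved with time. Within each library, SOX11 was 0.425 to 0.478 of the SOX12 level at day 0, and by day 8 it was 4.02 and 5.10 times SOX12 in S13 and S23 and 3.28 and 2.86 times in WT1 and WT2. The SOX4 level over that of SOX12 was 1.35 and 1.39 in S13 and S23 and 1.83 and 1.68 in WT1 and WT2 at day 4. At day 8 the order was turned round, with 2.53 and 3.13 in S13 and S23 and 1.47 and 1.28 in WT1 and WT2. These ratios are descriptions and were not tested. Summed SOXC level was 129 to 176 TPM in SOX21-/- and 233 to 247 TPM in wild type at day 4, and 237 to 305 TPM in SOX21-/- and 217 to 232 TPM in wild type at day 8.

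The SOXD genes took 3 different courses, and SOX13 stood apart. SOX13 is the least studied of them and is known, in mice, from gamma delta T cells and as a partner that holds back TCF factors of the WNT pathway. SOX5 shapes the identity of deep-layer cortical neurons in mice, and SOX6 that of cortical interneurons. SOX13 (ENSG00000143842) lies at chr1:204073115-204127743 on the plus strand, with 10 transcripts in GENCODE v29. SOX5 (ENSG00000134532, chr12:23529500-24562544, minus strand, 22 transcripts) and SOX6 (ENSG00000110693, chr11:15966449-16739591, minus strand, 17 transcripts) are far longer genes.

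SOX13 stood at 32.96 and 30.1 TPM at day 0, 72.2 and 71.5 TPM at day 4 and 130.2 and 130.2 TPM at day 8 in S13 and S23. WT1 and WT2 had 28.9 and 29.8 TPM, then 45.97 and 56.5 TPM, then 35.4 and 38.3 TPM. Both SOX21-/- libraries were above both wild-type libraries at all 3 days, with a gap that widened. The difference was 0.10 at day 0 (SE 0.10, adjusted p = 1), 0.49 at day 4 (SE 0.10, adjusted p = 0.0822) and 1.79 at day 8 (SE 0.10, adjusted p = 0.000204). It changed by 1.31 from day 4 to day 8 (SE 0.15, adjusted p = 0.0107) and by 1.696 from day 0 to day 8 (SE 0.15, adjusted p = 0.00185), so the time courses themselves differed. Among all 58219 genes, SOX13 held place 1031 by mean TPM at day 8 in SOX21-/- and place 4559 in wild type. The difference at day 4 was 0.65 (adjusted p = 0.0480) with median-of-ratios scaling and 0.64 (adjusted p = 0.0436) with quantile normalization, so whether it passes at that day rests on the scaling.

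The promoter of SOX13 is shown because this gene alone passed between genotypes, and that of SOX5 because, of the SOXD genes with 1 window in the table, it is the other, and it holds a motif of the kind SOX proteins bind. Both are 300-base windows from RefSeq on GRCh38.p14, running from 250 bases before the start site to 50 after it, 5′ to 3′ on the gene's own strand. The SOX13 window is chr1:204072865-204073164 on the plus strand, and the SOX5 window is chr12:24562442-24562741 on the minus strand. Capitals mark CATTGT, the reverse complement of ACAATG.
SOX13: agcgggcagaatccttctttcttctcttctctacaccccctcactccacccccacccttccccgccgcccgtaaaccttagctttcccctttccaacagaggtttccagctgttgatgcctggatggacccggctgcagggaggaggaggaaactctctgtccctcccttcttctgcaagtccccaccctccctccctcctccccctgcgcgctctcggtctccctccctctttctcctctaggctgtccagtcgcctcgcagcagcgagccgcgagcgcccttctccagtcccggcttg
SOX5: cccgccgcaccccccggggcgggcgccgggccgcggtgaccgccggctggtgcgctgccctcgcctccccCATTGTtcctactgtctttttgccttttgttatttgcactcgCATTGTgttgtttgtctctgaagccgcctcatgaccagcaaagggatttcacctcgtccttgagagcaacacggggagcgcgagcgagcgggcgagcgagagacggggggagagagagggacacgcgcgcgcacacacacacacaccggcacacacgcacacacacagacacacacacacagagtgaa
The 4 motifs searched, each on both strands, were a SOX type spelled ACAAAG, a close variant of it spelled ACAATG, the TCF/LEF type read by factors of the WNT pathway, spelled CTTTGA, and the TATA box, spelled TATAAA. Matches to different motifs may overlap in part but not over the whole motif. The SOX13 window held none of the 4, and the SOX5 window held its CATTGT at 2 places, beginning 180 and 138 bases before the start site. Of 35116 RefSeq promoter windows of this length, 16.1% held ACAAAG, 10.8% ACAATG, 24.5% either of these, 12.9% CTTTGA and 11.5% TATAAA. The SOX13 window had 15 CpG dinucleotides and 62.7% G and C, against medians of 14 and 58.7% over all windows, and the SOX5 window had 29 and 63.7%. Of the 9 genes, 5 had a window in the table (SOX4, SOX12, SOX5, SOX6 and SOX13), and SOX4 and SOX12 held none of the 4 motifs, while 4 of the 5 SOX6 windows held at least 1. These matches are descriptions of the letters and not of binding.

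SOX5 had 0.497 and 0.0800 TPM at day 0, 15.4 and 15.8 TPM at day 4 and 23.2 and 16.1 TPM at day 8 in S13 and S23. WT1 and WT2 had 0.677 and 0.0899 TPM, then 25.7 and 21.7 TPM, then 22.4 and 28.998 TPM. SOX5 was lower in both SOX21-/- libraries at day 4, and the libraries overlapped at days 0 and 8. The difference was -0.57 at day 4 (SE 0.27, adjusted p = 0.344) and -0.38 at day 8 (SE 0.27, adjusted p = 0.575). SOX6 had 0.306 and 0.00655 TPM, then 4.34 and 10.7 TPM, then 25.3 and 27.6 TPM in S13 and S23. In WT1 and WT2 it had 0.139 and 0.582 TPM, then 5.87 and 6.54 TPM, then 25.2 and 28.2 TPM. The genotypes overlapped for SOX6 at every day, with differences of 0.13 at day 4 (SE 0.34, adjusted p = 0.929) and -0.01 at day 8 (SE 0.34, adjusted p = 1).

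SOX13 thus led the SOXD level in SOX21-/- cells. It stood at 5.61 and 8.10 times SOX5 in S13 and S23 at day 8, against 1.58 and 1.32 times in WT1 and WT2. Over SOX6 the ratios at day 8 were 5.14 (S13) and 4.72 (S23), against 1.41 (WT1) and 1.36 (WT2). The SOXD genes made up 34.1% to 39.9% of the summed TPM of all 9 genes in SOX21-/- at day 8, against 22.9% to 26.4% in wild type. These shares follow the 1 gene that passed and are given without a test.

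**Figure D2:**
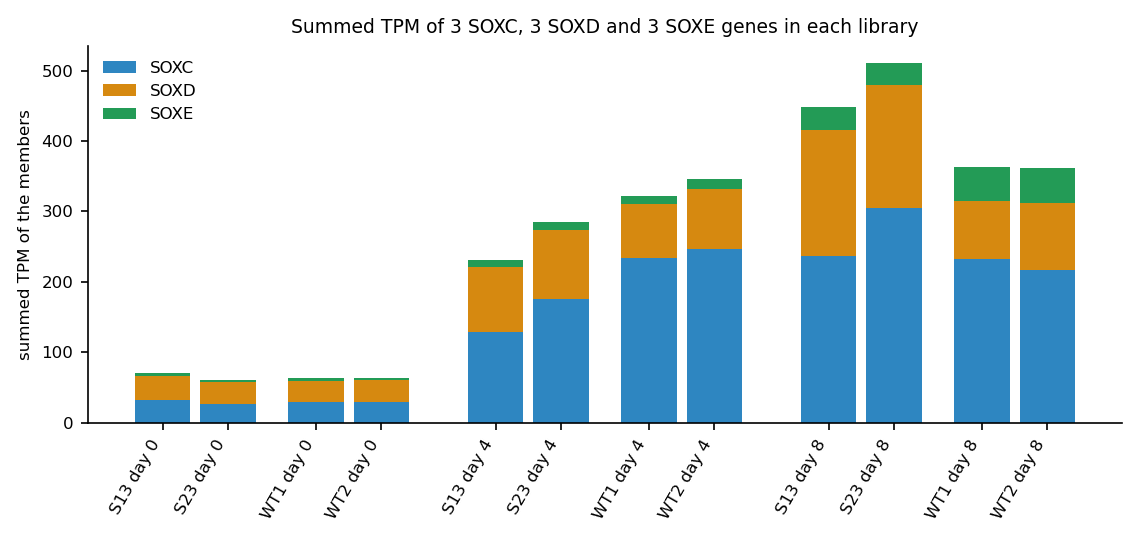
Summed TPM of the SOXC (blue), SOXD (orange) and SOXE (green) genes in each library (vertical axis, from 0), with S13 and S23 left of WT1 and WT2 at each day. The sums run from 60.9 to 70.2 TPM over the day 0 libraries to 448 (S13) and 510.0 (S23) TPM at day 8, against 363 (WT1) and 362 (WT2) TPM.

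Among the SOXE genes SOX9 was by far the most abundant by day 8. SOX9 keeps neural stem cells as such and starts glia formation, and it is the master regulator of cartilage. SOX8 acts beside it and beside SOX10 in glia, and SOX10 marks neural crest and the glia that make myelin. SOX8 (ENSG00000005513, chr16:981808-986979) and SOX9 (ENSG00000125398, chr17:72121020-72126420) lie on the plus strand, and SOX10 (ENSG00000100146, chr22:37970686-37987422) on the minus strand.

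SOX9 had 2.15 and 1.64 TPM at day 0, 6.87 and 6.67 TPM at day 4 and 27.5 and 26.5 TPM at day 8 in S13 and S23. WT1 and WT2 had 1.45 and 1.86 TPM, then 8.05 and 11.3 TPM, then 42.8 and 44.1 TPM. SOX9 was lower in both SOX21-/- libraries at days 4 and 8, and overlapped at day 0. The difference was -0.44 at day 4 (SE 0.17, adjusted p = 0.246) and -0.67 at day 8 (SE 0.17, adjusted p = 0.0912). With quantile normalization the day 8 value was -0.76 and passed (adjusted p = 0.0479), so this call rests on the scaling. The SOX13 level over that of SOX9 was 4.73 and 4.92 in S13 and S23 at day 8 and 0.828 and 0.868 in WT1 and WT2.

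SOX8 stayed low: 1.53 and 1.16 TPM, then 2.70 and 4.21 TPM, then 3.49 and 4.09 TPM in S13 and S23. Its wild-type values were 1.54 and 1.34 TPM, then 2.85 and 3.09 TPM, then 5.06 and 5.44 TPM. The genotypes overlapped until day 4, and at day 8 both SOX21-/- libraries were lower, by -0.39 (SE 0.20, adjusted p = 0.418). SOX10 had 0.603 and 0.697 TPM, then 0.183 and 0.327 TPM, then 0.747 and 0.392 TPM in S13 and S23. WT1 and WT2 had 0.783 and 0.817 TPM, then 0.107 TPM and a listed 0, then 0.0861 and 0.151 TPM. SOX10 was not tested at these levels, and it overlaps POLR2F on the opposite strand, so reads of both may be mixed where strand was not used in counting. The SOXE genes made up 6.07% to 7.09% of the summed TPM of all 9 genes in SOX21-/- at day 8, against 13.2% to 13.7% in wild type.

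The differences at day 0 were -0.23 for SOX6, -0.09 for SOX5, -0.06 for SOX8, -0.04 for SOX4, -0.01 for SOX11, 0.02 for SOX12, 0.10 for SOX13 and 0.12 for SOX9. Between the genotypes, 0 of the 8 genes passed at day 0, and 0 had an unadjusted p under 0.05 (1425 of all genes did), where limma called 0.161% of all genes tested higher and 0.223% lower. At day 4, 0 of the 8 passed, beside 0.239% higher and 0.536% lower over all genes. At an unadjusted p under 0.05, SOX13 was higher and SOX4, SOX11, SOX12 and SOX9 were lower at day 4, where 4107 of all 24248 genes had such a p. At day 8 SOX4 was higher and SOX9 lower at that level besides SOX13, where 3944 of all genes had such a p. At day 8, SOX13 alone was called, higher, beside 1.47% higher and 1.32% lower over all genes. The libraries of the 2 genotypes did not overlap for 2 of the 8 genes at day 0 (SOX13 higher and SOX4 lower), for 6 at day 4 (SOX13 higher and SOX4, SOX11, SOX12, SOX5 and SOX9 lower) and for 5 at day 8 (SOX4 and SOX13 higher and SOX12, SOX8 and SOX9 lower). Over all genes tested the shares without overlap were 29.7%, 44.9% and 43.1%. The median of all genes tested was -0.12 at day 4 and 0 at days 0 and 8. Median-of-ratios scaling called 61 genes higher and 36 lower at day 4, and quantile normalization 72 and 56, against 58 and 130 on the deposited values.

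**Figure D3:**
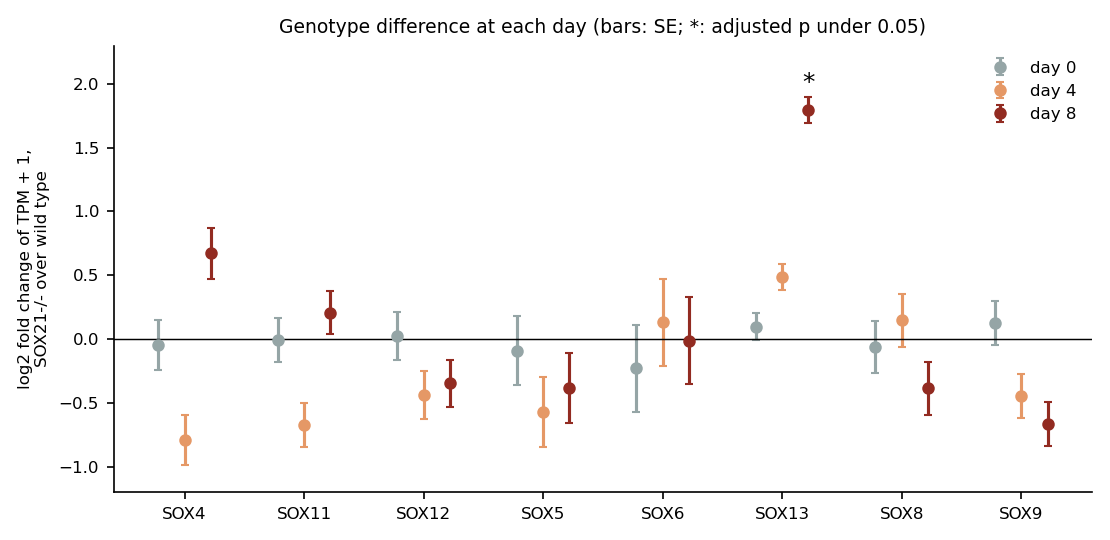
Log2 fold change of TPM + 1, SOX21-/- over wild type (vertical axis), for the 8 tested genes at days 0, 4 and 8, with SE bars and a star where the adjusted p was under 0.05. SOX13 at day 8 (1.79) carries the only star, and SOX4 lies at -0.79 at day 4 and 0.67 at day 8.

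The change of the genotype difference between days was tested directly. From day 0 to day 4, 0 of the 8 genes passed, beside 0.169% of all genes upward and 0.239% downward, and SOX13 (0.39), SOX11 (-0.67), SOX4 (-0.75) and SOX9 (-0.57) had an unadjusted p under 0.05, as did 2913 of all 24248 genes. The other 4 had 0.36 (SOX6), 0.21 (SOX8), -0.46 (SOX12) and -0.48 (SOX5). From day 4 to day 8 SOX13 passed upward, beside 0.788% upward and 0.326% downward over all genes. SOX4 (1.46) and SOX11 (0.88) had an unadjusted p under 0.05 there, as did 3974 of all genes, and the others had 0.19 (SOX5), 0.09 (SOX12), -0.14 (SOX6), -0.22 (SOX9) and -0.53 (SOX8). Between days 0 and 8 SOX13 again passed upward, beside 0.536% upward and 0.404% downward. SOX4 (0.71) and SOX9 (-0.79) had an unadjusted p under 0.05 there, as did 2715 of all genes, and the others had 0.22 (SOX6), 0.21 (SOX11), -0.29 (SOX5), -0.32 (SOX8) and -0.37 (SOX12). From day 4 to day 8 the median of all genes was 0.12, and on the deposited values 191 genes went upward and 79 downward. Median-of-ratios scaling gave 58 and 46, and quantile normalization 114 and 100. From day 0 to day 4 the deposited values gave 41 upward and 58 downward, median-of-ratios scaling 68 and 53, and quantile normalization 58 and 51.

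Within SOX21-/- all 8 genes rose from day 0 to day 4, beside 48.1% of all genes rising and 12.5% falling. The log2 fold changes were 3.70 for SOX5, 3.57 for SOX11, 2.78 for SOX6, 1.74 for SOX4, 1.502 for SOX12, 1.43 for SOX9, 1.16 for SOX13 and 0.91 for SOX8. The median of all genes was 0.72, so SOX8 stood 0.19 and SOX13 0.45 above it. With median-of-ratios scaling 5 of the 8 rose: SOX13 had -0.05, SOX8 0.07 and SOX12 0.33, and none of these 3 passed. Over all genes that scaling called 5286 higher and 6449 lower, quantile normalization 7654 and 4619, and rescaling to nuclear protein-coding genes 6832 and 3192, against 11664 and 3024 on the deposited values. Within wild type all 8 rose too, beside 54.3% rising and 11.4% falling. The values were 4.23 for SOX11, 4.19 for SOX5, 2.49 for SOX4, 2.42 for SOX6, 2.00 for SOX9, 1.96 for SOX12, 0.78 for SOX13 and 0.70 for SOX8. SOX13 and SOX8 lay below the median of all genes in wild type (0.91), by -0.13 and -0.21, and turned to -0.63 (adjusted p = 0.000998) and -0.28 with median-of-ratios scaling and to -0.02 and -0.10 with quantile normalization. Without WT2 of day 0 or of day 4 the SOX8 step lost its call (adjusted p = 0.0694 and 0.0665). Median-of-ratios scaling called 5557 genes higher and 6587 lower in wild type, and quantile normalization 7632 and 4685, against 13177 and 2754 on the deposited values. The median of all genes was 0 in SOX21-/- and 0.03 in wild type with median-of-ratios scaling, and 0.26 in each with quantile normalization, so SOX13 and SOX8 lay below it in wild type under both.

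From day 4 to day 8, 5 of the 8 genes rose in SOX21-/-, beside 19% of all genes rising and 7.15% falling. These were SOX9 (1.85, adjusted p = 0.000407), SOX6 (1.80, adjusted p = 0.00697), SOX11 (1.04, adjusted p = 0.00372), SOX4 (0.95, adjusted p = 0.00979) and SOX13 (0.85, adjusted p = 0.00119). SOX5 (0.29), SOX8 (0.12) and SOX12 (-0.07) did not pass, and the median of all genes was 0.20. The SOX4 step lost its call without S23 of day 8 (0.77, adjusted p = 0.0634), and the SOX6 step with a pseudocount of 0.1 (1.94, adjusted p = 0.0866). With only the 4 libraries compared, the steps of SOX6, SOX4 and SOX11 lost theirs (adjusted p = 0.134, 0.171 and 0.0923). In wild type 3 of the 8 passed, beside 7.62% rising and 4.99% falling: SOX9 (2.07, adjusted p = 0.000489) and SOX6 (1.94, adjusted p = 0.0104) rose, and SOX13 fell (-0.46, adjusted p = 0.0273). The wild-type fall of SOX13 lost its call without WT2 of day 4 (-0.31, adjusted p = 0.138), WT1 of day 8 (-0.40, adjusted p = 0.138) or WT2 of day 8 (-0.51, adjusted p = 0.0709). The wild-type rise of SOX6 lost its call without any 1 of the 4 libraries compared (1.86 to 2.02, adjusted p = 0.0518 to 0.0629), and with a pseudocount of 0.1 (adjusted p = 0.109). SOX11 (0.16), SOX5 (0.11) and SOX12 (-0.16) did not pass in wild type. The steps of SOX4 (-0.51, adjusted p = 0.133) and SOX8 (0.66, adjusted p = 0.0743) did not pass in wild type, and passed without S13 or S23 of day 4 (adjusted p = 0.0429 and 0.0432 for SOX4, 0.0452 and 0.04596 for SOX8). Over all genes, median-of-ratios scaling called 2469 higher and 2790 lower in SOX21-/-, and quantile normalization 2355 and 2796, against 4603 and 1733 on the deposited values. In wild type these were 1193 and 1434, 1407 and 1453, and 1848 and 1210.

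**Figure D4:**
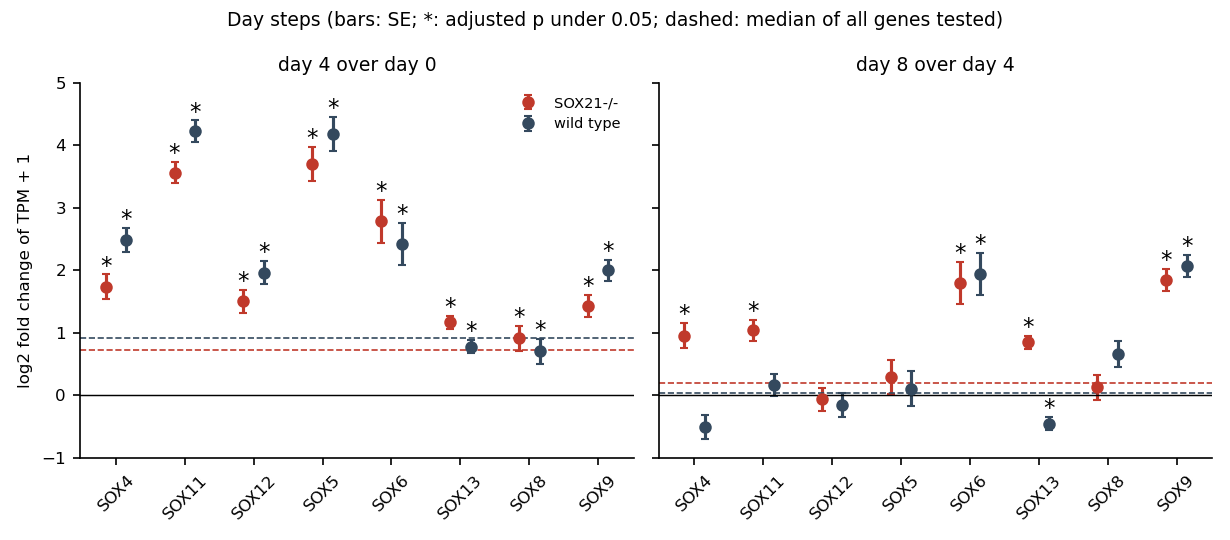
Log2 fold change of TPM + 1 for the steps from day 0 to day 4 (left) and from day 4 to day 8 (right), SOX21-/- in red left of wild type in dark blue, with SE bars, a star where the adjusted p was under 0.05 and dashed lines at the median of all genes tested. SOX13 rises by 0.85 in SOX21-/- and falls by 0.46 in wild type in the right panel, and in the left panel its wild-type step of 0.78 and that of SOX8 (0.70) lie under the dashed line at 0.91 and change sign with median-of-ratios scaling.

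The order of levels turned over with time. SOX13 led the 9 genes at day 0 in both genotypes, ahead of SOX4, SOX12 and SOX11, with no overlap of libraries between neighbours in this order. At day 4 SOX13 (71.8 TPM) and SOX11 (70.7 TPM) led in SOX21-/- and overlapped, while SOX11 (113 TPM) led in wild type, apart from SOX4 (81.0 TPM), and SOX13 overlapped SOX12 behind them. At day 8 SOX11 (148 TPM) and SOX13 (130.2 TPM) led in SOX21-/- and overlapped. In wild type at day 8 the order ran SOX11, SOX4, SOX9, SOX12 and SOX13, each apart from the next. SOX6 was level with SOX9 in SOX21-/- (26.5 and 27.0 TPM) and with SOX5 in wild type (26.7 and 25.7 TPM), where the libraries overlapped. SOX10 was last at days 4 and 8, and SOX6 at day 0, where it overlapped SOX5.

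Across the 12 libraries, Pearson correlations of log2(TPM + 1) between pairs of these genes ran from 0.51 for SOX13 with SOX8 to 0.98 for SOX11 with SOX5. SOX13 had the lowest values, up to 0.73 with SOX4. All such values are descriptions, since the 12 libraries share the same 3 days, and they carry no p. By the same measure the genes most like each of the 8 were sought among 10583 protein-coding genes with a mean of at least 5 TPM. For SOX13 they were WNT8B (r = 0.971), which encodes a WNT ligand and is named in the study's title, CCNG1 (0.940), a cyclin induced by p53, and NUFIP2 (0.935). WNT8B had 26.7 and 94.3 TPM at day 4 and 322 and 303 TPM at day 8 in S13 and S23, against 2.78 and 3.19 TPM and then 1.60 and 0.317 TPM in WT1 and WT2. For SOX9 the nearest were NOTCH1 (0.995), a receptor that keeps neural progenitors undifferentiated, FAM167B (0.993) and PAIP2B (0.993). SOX4 was most like ATN1 (0.997), LZTS3 (0.993) and FBN3 (0.992), and SOX11 most like CCDC14 (0.999), FZD2 (0.998), a WNT receptor, and PTPRS (0.998). SOX12 was nearest to DYRK1B (0.995), ARID1A (0.994), a subunit of a chromatin remodelling complex, and E2F1 (0.993), a regulator of entry into S phase. SOX5 was nearest to ZDHHC21 (0.997), TMEM181 (0.996) and TRIM36 (0.996), SOX6 to LFNG (0.993), a modifier of NOTCH receptors, and FAM234B (0.992), and SOX8 to ZNF704 (0.979), HPSE2 (0.968) and PAK3 (0.967).

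Genes known to respond to these factors were read from fixed lists, each by its count and its median. Of 12 cartilage matrix genes driven by SOX9, SOX5 and SOX6 elsewhere, 9 were tested. At day 4 COL2A1, which encodes type II collagen and is the best known SOX9 target, was lower in SOX21-/-, with 68.0 (S13) and 86.2 (S23) TPM, against 161 (WT1) and 153 (WT2) TPM in wild type (-1.03, SE 0.13, adjusted p = 0.0219). At day 8 COL9A2, a chain of type IX collagen, was higher, with 19.1 and 18.1 TPM against 11.95 and 10.8 TPM (0.67, SE 0.14, adjusted p = 0.0457). The list's median difference was -0.49 at day 4, beside -0.12 over all genes, and 0.24 at day 8, beside 0. At an unadjusted p under 0.05, COL9A1 (-0.81) and COL11A2 (-0.49) were also lower in SOX21-/- at day 4, and neither passed. COL2A1 at day 8 had 454 (S13) and 459 (S23) TPM, against 726 (WT1) and 660.1 (WT2) TPM in wild type, without overlap (-0.60, SE 0.13, adjusted p = 0.0578). From day 4 to day 8 COL11A1, COL2A1, COL9A2, COL9A3 and MATN3 rose in SOX21-/-, beside 19% of all genes rising and 7.15% falling. The first 4 of these rose in wild type, beside 7.62% rising and 4.99% falling. The list medians were 1.55 and 0.79, beside 0.20 and 0.03 over all genes. From day 0 to day 4 COL2A1 and COL9A2 rose in SOX21-/-, with COL11A1 and COL9A1 also rising in wild type, and CNMD and COL9A3 fell in both. Over all genes, 48.1% rose and 12.5% fell in SOX21-/-, and 54.3% rose and 11.4% fell in wild type. The list medians were 0.01 and 0.43, beside 0.72 and 0.91 over all genes. Steps of the list genes are on the deposited scale, and other scalings were not run for them.

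Of 12 neuronal genes with reported SOXC input, 11 were tested. At day 8 DCX, a microtubule protein of migrating neurons, was lower in SOX21-/-, with 4.92 (S13) and 2.12 (S23) TPM, against 20.7 (WT1) and 25.7 (WT2) TPM in wild type (-2.49, SE 0.30, adjusted p = 0.00554). No other gene of this list passed between genotypes at days 0, 4 or 8, with TUBB3, STMN2 and MAP2 lower at day 4, and TUBB3 and STMN2 lower and ELAVL3 higher at day 8, at an unadjusted p under 0.05, and its median was -0.22 at day 4 and -0.17 at day 8. From day 0 to day 4, 9 of the 11 rose and STMN2 fell in SOX21-/-, and 10 rose in wild type, with medians of 0.99 and 1.30. Over all genes 48.1% rose in SOX21-/- and 54.3% in wild type, with medians of 0.72 and 0.91, and STMN1 (0.70), DBN1 (0.58) and TUBB3 (0.58) lay under that median in SOX21-/-. From day 4 to day 8, 3 rose and 4 fell in SOX21-/-, beside 19% of all genes rising and 7.15% falling. In wild type 3 rose and 3 fell, beside 7.62% rising and 4.99% falling. The list medians were 0.52 and 0.25, beside 0.20 and 0.03 over all genes. The 12 genes of a wider neuron list, which shares TUBB3, DCX, STMN2, MAP2, ELAVL3 and NEUROD1 with it, summed to 193 to 213 TPM in SOX21-/- and 308 to 331 TPM in wild type at day 4. At day 8 that list summed to 238.7 to 332 TPM in SOX21-/- and 411 to 417 TPM in wild type, and DCX was its 1 member of 10 tested to pass. Its members did not all lie on 1 side at day 8: ELAVL4 (1.19), NEUROG2 (1.67), ELAVL3 (1.32) and NHLH1 (1.45) were higher in SOX21-/- and TUBB3 (-0.75), STMN2 (-0.89) and SYT1 (-0.43) lower at an unadjusted p under 0.05, and none of these 7 passed. In bulk RNA, fewer cells of a type and less RNA per cell cannot be told apart, and the part of neuron content in the SOXC values was not tested.

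**Figure D5:**
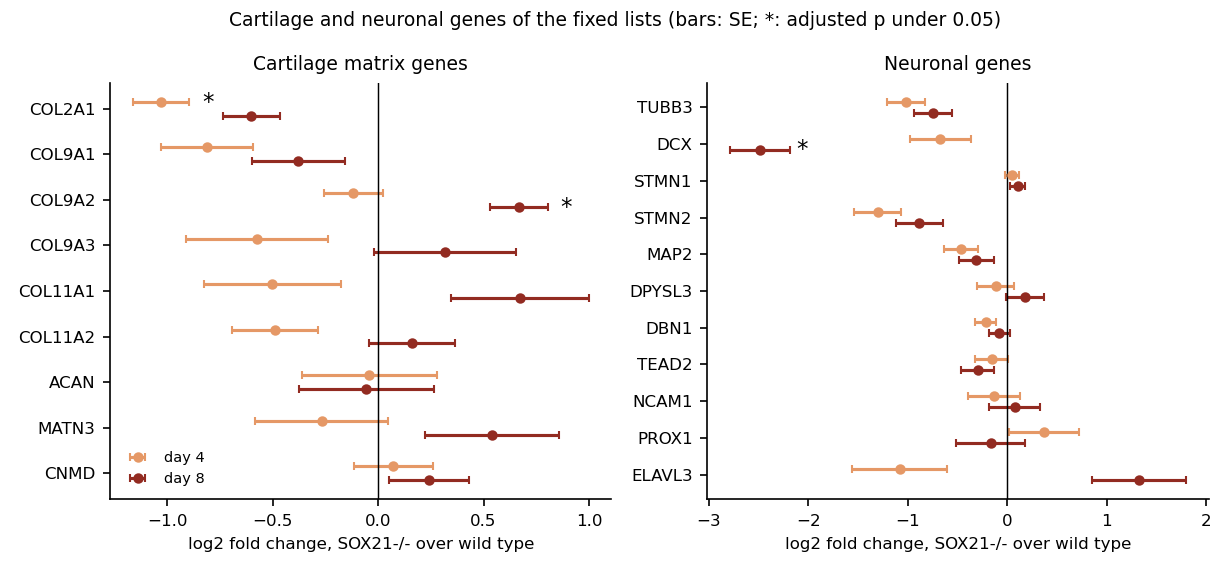
Log2 fold change of TPM + 1, SOX21-/- over wild type (horizontal axis), at days 4 and 8 for the 9 tested cartilage matrix genes (left) and the 11 tested neuronal genes (right), with SE bars and a star where the adjusted p was under 0.05. COL2A1 at day 4 (-1.03), COL9A2 at day 8 (0.67) and DCX at day 8 (-2.49) carry the 3 stars.

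SOXE genes are known from neural crest and glia, and 1 marker of these passed between genotypes. Of 14 neural crest genes, 10 were tested, and NGFR, a neurotrophin receptor, was lower in SOX21-/- at day 4, with 9.05 (S13) and 10.3 (S23) TPM, against 24.1 (WT1) and 30.2 (WT2) TPM in wild type (-1.39, SE 0.19, adjusted p = 0.0255). The crest list summed to 54.3 to 67.5 TPM in SOX21-/- and 85.3 to 103 TPM in wild type at day 4, and to 72.1 to 92.2 TPM and 91.6 to 92.4 TPM at day 8, with medians of -0.10 and 0.08 between genotypes. At an unadjusted p under 0.05, B3GAT1 (-0.64) was lower and ETS1 (0.99) higher at day 4, and NGFR and ERBB3 lower at day 8. At day 4, 6 of the 14 crest genes in SOX21-/- and 8 in wild type stayed under 1 TPM in both libraries. Of 15 genes of glial precursors and glia, 10 were tested and 0 passed between genotypes at any day, with medians of -0.26 at day 4 and 0.04 at day 8, and 7 of the 15 stayed under 1 TPM in both libraries of each genotype at day 8. Their sum at day 8 was 617 to 710 TPM in SOX21-/- and 470 to 517 TPM in wild type. At an unadjusted p under 0.05, the genes included SLC1A3, higher at days 4 and 8, and PDGFRA, lower at day 8. The part of these cell types in the SOXE values was not tested.

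Of 10 other SOX genes, 6 were tested (SOX1, SOX2, SOX3, SOX14, SOX15 and SOX21). SOX14, of the same SOXB2 subgroup as SOX21, was higher in SOX21-/- at day 8, with 3.40 and 5.06 TPM in S13 and S23 and a listed 0 in WT1 and WT2 (adjusted p = 0.00161). Their median was -0.07 at day 4 and 0.25 at day 8. At an unadjusted p under 0.05, SOX1 was higher at day 4 (1.72) and day 8 (1.42), and SOX2 lower at day 4 (-0.32). From day 0 to day 4 SOX1, SOX2, SOX3, SOX15 and SOX21 rose in both genotypes, beside 48.1% of all genes in SOX21-/- and 54.3% in wild type. From day 4 to day 8 SOX1, SOX3 and SOX14 rose and SOX15 fell in SOX21-/-, and SOX1 rose in wild type. Over all genes, 19% rose and 7.15% fell in that step in SOX21-/-, and 7.62% and 4.99% in wild type. Of the 12 neural progenitor markers, VIM was higher and LHX2 lower in SOX21-/- at day 4 and MSI1 higher at day 8. The list medians were 0.11 and 0.28. All 12 rose from day 0 to day 4 in both genotypes, beside 48.1% of all genes in SOX21-/- and 54.3% in wild type. At an unadjusted p under 0.05, besides SOX1 and SOX2, OTX2 was higher at day 4. At that level PAX6 (0.84), CDH2, NES and VIM were higher and LHX2 (-0.75) lower at day 8. Of the 8 pluripotency markers none passed between genotypes, at list medians of -0.31 at day 4 and -0.11 at day 8. DPPA4 (-0.45), L1TD1 (-1.15) and DNMT3B (-0.50) were lower in SOX21-/- at day 4 at an unadjusted p under 0.05. From day 0 to day 4, 6 of the 8 fell and 2 rose in both genotypes. Over all genes, 12.5% fell and 48.1% rose in SOX21-/-, and 11.4% fell and 54.3% rose in wild type. Of 12 mesoderm and endoderm markers only 2 were tested, and CXCR4, which neural cells also express, was higher in SOX21-/- at days 4 and 8, with 90.8 (S13) and 110 (S23) TPM, against 30.0 (WT1) and 28.6 (WT2) TPM in wild type at day 8 (1.74, SE 0.24, adjusted p = 0.00949). At day 0 no gene of the 12 lists passed between genotypes. NES (-0.29) and ZFP42 (-1.21) were lower and VIM (0.38) and CXCR4 (0.62) higher in SOX21-/- there at an unadjusted p under 0.05.

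Neighbouring and overlapping genes bear on how far each value can be trusted, since strand use is not given. SOX12 is overlapped by NRSN2-AS1 (7.52 and 7.81 TPM in S13 and S23 and 8.40 and 11.02 TPM in WT1 and WT2 at day 8). SOX9 is overlapped by SOX9-AS1 (18.6 and 9.13 TPM against 15.1 and 9.82 TPM at day 8), and SOX6 by C11orf58, which had 128 to 268 TPM over the 12 libraries. None of these 3 passed between genotypes at day 4 or 8, nor at an unadjusted p under 0.05. POLR2F, which overlaps SOX10, had 66.0 and 59.3 TPM in S13 and S23 and 95.3 and 74.7 TPM in WT1 and WT2 at day 8. It was lower in SOX21-/- there at an unadjusted p under 0.05 (-0.43, SE 0.14) and did not pass. SOX11 is overlapped on its own strand by AC010729.1, with 4.49 and 3.43 TPM in S13 and S23 and 4.21 and 1.99 TPM in WT1 and WT2 at day 8. A non-coding gene on the opposite strand begins 1549 bases before SOX11 and was picked out after its values were seen. AC108025.2, as the deposited table names it (ENSG00000230090), had 12.7 and 33.1 TPM at day 4 and 0.635 and 0.213 TPM at day 8 in S13 and S23, against 14.3 and 10.7 TPM and then 26.4 and 9.37 TPM in WT1 and WT2. It was lower in SOX21-/- at day 8 (-3.58, SE 0.51, adjusted p = 0.0102), where SOX11 differed by 0.21 and did not pass.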

How the data were processed

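The deposited values for the 12 H9 poly(A) libraries are TPM. The submitters' processing notes name Salmon 0.8.2, CASAVA 1.7 and the build hg38. Neither gene annotation nor strand setting is given in the sources used here. TPM keeps no read numbers, so depth and its precision are unknown, and neither intervals nor floors are given. The table held 0 columns of other series.

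Groups came from the labels. Genes with at least 1 TPM in at least 2 libraries (24248) were fitted on log2(TPM + 1) with limma 3.58.1 in R 4.3.3, with a mean per group over all 12 libraries, a variance trend, 6 residual and 2.29 prior degrees of freedom, and two-sided contrasts adjusted by Benjamini-Hochberg over all genes tested in each of 10 comparisons, at a threshold of 0.05. The model was tested on simulated data. Tried besides were a pseudocount of 0.1, filters of 5 TPM and of none, other scalings and moderations, smaller fits, a 2-fold threshold, the line label as a block and each library left out.

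All 9 genes were described at every day, SOX10 by its level alone, with members of the 12 lists where they passed and for each tested gene the 3 genes with the most similar course, apart from results that are not reported here. The 9 genes and the lists were chosen with earlier results of these data known. Genes named at an unadjusted p, and neighbouring genes, were chosen after their values were seen. Locations came from GENCODE v29 on GRCh38, matched without ID version for all 9 genes and with it for 7 (not SOX5 and SOX9). Promoters came from RefSeq GRCh38.p14.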

Additional observations from a re-analysis of the deposited data

Results flagged for a closer look

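For SOX13 the genotype difference itself changed with time, by a direct test of that change in limma. It changed by 1.31 on the log2 scale from day 4 to day 8 (adjusted p = 0.0107) and by 1.696 from day 0 to day 8 (adjusted p = 0.00185), toward a higher level in SOX21-/-. Its level was higher in both SOX21-/- libraries than in both wild-type libraries at each of the 3 days. Groups of 2 libraries were too small for a check of single libraries that stand apart.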

How the results depend on the processing

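Over 80 results (8 genes in 10 comparisons), 27 were called and 14 of these kept their call under every alternative run. SOX13 at day 8 between genotypes was among these, with values of 1.74 to 2.04 and an adjusted p of at most 0.0309 over 24 alternatives. Of the 13 that lost a call somewhere, 3 also changed sign in steps from day 0 to day 4: SOX13 in SOX21-/- (-0.050 with median-of-ratios scaling), SOX13 in wild type (-0.63 with that scaling and -0.022 with quantile normalization) and SOX8 in wild type (-0.28 and -0.10). Of the 53 not called, 7 passed under some alternative. In counts of the 8 genes called, the genotype difference at day 4 gave 0, and 1 with median-of-ratios scaling or quantile normalization, and 0 to 1 with a library left out. At day 8 it gave 1, and 2 with quantile normalization, and 1 to 2 with a library left out. The SOX21-/- step from day 0 to day 4 gave 8, and 5 with median-of-ratios scaling, and lost SOX8 alone with quantile normalization, with only the libraries compared and at a 2-fold threshold. The same step in wild type gave 8, and lost SOX13 and SOX8 with quantile normalization, with rescaling to protein-coding genes (0.16 and 0.30) and at a 2-fold threshold. With median-of-ratios scaling SOX8 lost its call, and SOX13 was called as a fall (-0.63, adjusted p = 0.000998). The SOX21-/- step from day 4 to day 8 gave 5, and 2 with only the libraries compared and 3 at a 2-fold threshold, where fewer samples or a stricter rule apply. In wild type, day 4 to day 8 gave 3, and 1 with only the libraries compared, and 1 to 5 with a library left out. The change of the genotype difference from day 4 to day 8 gave 1, and 2 with a filter at 5 TPM or rescaling to protein-coding genes, and 1 to 2 with a library left out. The cause of the changes under other scalings was not tested.

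Deviations of libraries of the same label correlated by -0.00603 to 0.0712 between days, over all genes tested. Such a correlation cannot decide whether the labels pair the libraries, since it does not exclude pairing in single genes. With the label as a replicate block, fitted as a fixed effect, the SOX13 change from day 4 to day 8 stayed at 1.31 with an adjusted p of 0.0517, which left 0 of 8 genes called there. Fitted so, it changed no other call of the 8 genes, nor did it as a random effect, and genotype differences at 1 day could not be fitted with it. Depth is unknown, so low values, such as those of SOX10, SOX5 and SOX6 at day 0, have no stated precision.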
